A study of Sus scrofa with 14 samples.

Results

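Genes of chondrocyte hypertrophy and of matrix mineralization were followed in the pig meniscus: COL10A1, MEF2C, PTH1R, DMP1 and SPP1. A probe was taken as a member when it was no control and its RefSeq accession in the scanner files is a transcript of one of these genes. This gave 5 of 2389 named genes and 11 of 43603 probes. COL10A1 (NM_001005153) and DMP1 (NM_001129953) were read by 1 probe each, PTH1R (NM_214382) by 2, MEF2C (NM_001044540) by 3 and SPP1 (NM_214023) by 4.

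The arrays came from 14 male Wuzhishan pigs, given as 6 to 7 months old in the labels, with 1 array per animal. In the osteoarthritis (OA) group, 7 pigs had undergone surgery on the anterior cruciate ligament, and the meniscus, a crescent of fibrocartilage in the knee joint, was collected 24 weeks later. In the sham group, 7 pigs were examined 24 weeks after a sham operation. No genotype or further treatment is named for either group, and the labels do not say what was done to the ligament.

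In the growth plate, chondrocytes stop dividing, enlarge and lay down type X collagen before their matrix calcifies. MEF2C is one of the transcription factors that switch this programme on, and parathyroid hormone-related protein, acting through the receptor PTH1R, holds it back. DMP1 and SPP1 (osteopontin) are acidic phosphoproteins that bind calcium and act on mineral growth. In osteoarthritic cartilage, parts of this programme are known to be used again, and the comparison asks whether its genes differ between operated and sham knees.

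The 5 genes did not share a direction by their brightest probes, and none of them passed the test. By its brightest probe, DMP1 averaged 1.40-fold higher in OA, MEF2C 1.38-fold and COL10A1 1.21-fold, whereas the mean of PTH1R was 1.53-fold and that of SPP1 1.20-fold higher in sham. Of the 11 probes, 0 had an adjusted p under 0.05 in limma (Benjamini-Hochberg over 38818 tested probes), and 1, that of DMP1, had an unadjusted p under 0.05. Over all tested probes 3.73% passed the adjusted threshold (2.88% higher and 0.848% lower in OA) and 19.6% the unadjusted one. By brightest probe 0 of the 5 genes passed, against 3.23% of 2258 named genes. For 0 of the 11 probes were the sham and OA arrays fully apart, which held for 1.73% of all tested probes.

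All 11 probes passed the filter and were well above background on all 14 arrays, so each value of a member below is a measured one. The dimmest were COL10A1 and the second PTH1R probe, at mean signals of 39.0 and 32.1. Of the 11 changes 5 were positive and 6 negative, with a median of -0.11 on the log2 scale; among all tested probes 44.9% were positive and the median was -0.05. Among the 5 brightest probes 3 were positive with a median of 0.28, against 0.0030 over the 2258 named genes, of which 50.5% were positive. The mean signal of the member probes ran from 32.1 to 6262 arbitrary units, beside a median of 86.6 for all tested probes. Levels of different probes are not compared here, since each probe binds with its own strength.

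OA arrays were dimmer than sham arrays, and each slide and each scan day carried 1 group. The raw signal had its 75th percentile at 539 ± 82.6 for sham and 274 ± 125 for OA (SD, n = 7 per group; two-sided exact permutation p = 0.0035, adjusted over 2 measures 0.0035). Well above background were 91.2% ± 1.8 of probes on sham arrays against 78.1% ± 8.9 on OA arrays (SD, n = 7; two-sided exact permutation p = 0.00058, adjusted p = 0.0012). Arrays that share a scan identifier in their scanner headers were taken as 1 slide. On that reading, sham 1 to 4 lay on slide 1 and sham 5 to 7 on slide 2. OA 1 lay on slide 3, OA 2 to OA 5 on slide 4, and OA 6 and OA 7 on slide 5. A difference between groups and a difference between slides therefore cannot be told apart. The tissue label was read against 15 markers of meniscus fibrochondrocytes, of which 4 carried a name here. These were ACAN, DCN, SOX9 and MGP, each well above background on all 14 arrays. The p-values set a difference between groups against the spread of these 14 arrays, 1 per pig. That spread also holds differences between slides of the same group.

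Values are given as log2 of the processed signal relative to the array's own 75th percentile, so 0 means a spot as bright as that percentile. This scaling bears on every direction given below. Before it, the mean log2 signal of each of the 11 probes was lower in OA, from -0.59 for DMP1 to -2.08 for the dimmest SPP1 probe. In bulk tissue, fewer cells of a type and less RNA per cell cannot be told apart.

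MEF2C is a MADS-box transcription factor that drives COL10A1 and other hypertrophy genes, and it is also active in muscle and in endothelial cells. Its brightest probe, at a mean signal of 477, ran in sham from -0.86 through a median of 0.21 to 0.93, and in OA from 0.13 through 0.80 to 0.95. Sham 2 was the lowest of the 14 arrays, sham 6 lay inside the upper OA values, and 6 of 7 OA arrays were above the sham mean. The groups averaged 0.14 ± 0.54 and 0.61 ± 0.35 (SD, n = 7 per group). The difference was 0.46 ± 0.24 (SE; 95% interval -0.04 to 0.97; limma adjusted p = 0.30).

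The other probes of MEF2C did not show this difference. Probe 2 gave -0.11 ± 0.19 (SE; limma adjusted p = 0.79) and probe 3 gave 0.0014 ± 0.22 (adjusted p = 0.999). All 3 probes lay on the same side of their sham means on 6 of 14 arrays, and on 2 of the 7 OA arrays. The widest gap was on OA 4, where the probes spanned 1.19 on the log2 scale. Averaged over the 3 probes, MEF2C stood at 0.12 (limma adjusted p = 0.78). Without sham 2 the brightest probe gave 0.30 (adjusted p = 0.50).

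PTH1R is the G protein-coupled receptor shared by parathyroid hormone and parathyroid hormone-related protein. Its brightest probe, at a mean signal of 147, ran in sham from -1.82 through -1.49 to 0.87, and in OA from -2.53 through -1.53 to -0.97. The medians of the groups were close. Sham 2 at 0.87 and sham 3 at 0.06 stood above all other arrays, whereas OA 2 at -2.53 and OA 4 at -2.30 were the lowest.

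The PTH1R means were -1.01 ± 1.05 in sham and -1.63 ± 0.62 in OA (SD, n = 7), a difference of -0.61 ± 0.41 (SE; 95% interval -1.48 to 0.26; limma adjusted p = 0.43). Without sham 2 the difference was -0.30 (limma adjusted p = 0.70). Probe 2 gave 0.00039 ± 0.31 (adjusted p = 1.00). On this probe too sham 2 was the highest of the 14 arrays, at -2.06. The probes parted on the OA arrays, with both on one side of the sham mean on 2 of 7, and most of all on OA 4, by 1.51.

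COL10A1 encodes type X collagen, a short-chain collagen of hypertrophic cartilage. Its probe was dim, with raw signals of 38.3 to 69.2 in sham and 11.3 to 61.8 in OA. After scaling it ran in sham from -3.71 through -3.42 to -3.04, and in OA from -3.79 through -2.97 to -2.69. The OA arrays fell into an upper run of 5, all above the highest sham array, and a lower pair, OA 4 and OA 5, at -3.79 and -3.61. The means were -3.38 ± 0.26 and -3.10 ± 0.43 (SD, n = 7). They differed by 0.28 ± 0.20 (SE; 95% interval -0.15 to 0.70; limma adjusted p = 0.47).

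The call of COL10A1 depended on background correction. With normexp correction it was higher in OA by 0.66 (limma adjusted p = 0.0011), but that setting moved the median of all tested probes to 0.33 and called 18371 of them. The low OA pair lay on slide 4, which also held OA 2 and OA 3 at -2.69 and -2.83. The spread within that slide was therefore as wide as within the OA group.

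DMP1 (dentin matrix protein 1) is a phosphoprotein of osteocytes and odontoblasts that seeds mineral and restrains the phosphate hormone FGF23. Its probe, at a mean signal of 441, ran in sham from -0.40 through -0.02 to 0.50, and in OA from 0.17 through 0.35 to 1.38. All 7 OA arrays lay above the sham mean and 2 above the highest sham array. OA 3 at 1.38 stood well apart from the next, OA 4 at 0.58, while the remaining 5 OA arrays lay between 0.17 and 0.39. The low end of OA overlapped with sham 1 at 0.24 and sham 4 at 0.50.

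The means of DMP1 were 0.02 ± 0.29 in sham and 0.50 ± 0.41 in OA (SD, n = 7). They differed by 0.48 ± 0.20 (SE; 95% interval 0.06 to 0.91; limma adjusted p = 0.19). Relative to the sham mean, slide 3 stood at 0.15, slide 4 at 0.65 and slide 5 at 0.30, and the sham slides at 0.13 and -0.17. Without OA 3 the difference was 0.34 (limma adjusted p = 0.35), and without slides 3 and 4 it was 0.30 (adjusted p = 0.71). With the slide as a random block it was 0.45 (limma adjusted p = 0.62). With the brightness of each array added as a covariate, an alternative chosen after the data were seen, it was 0.32 (adjusted p = 0.86). Normexp background correction alone brought it past the threshold, at 0.44 (adjusted p = 0.024), with the shift of all probes given above.

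**Figure D1:**
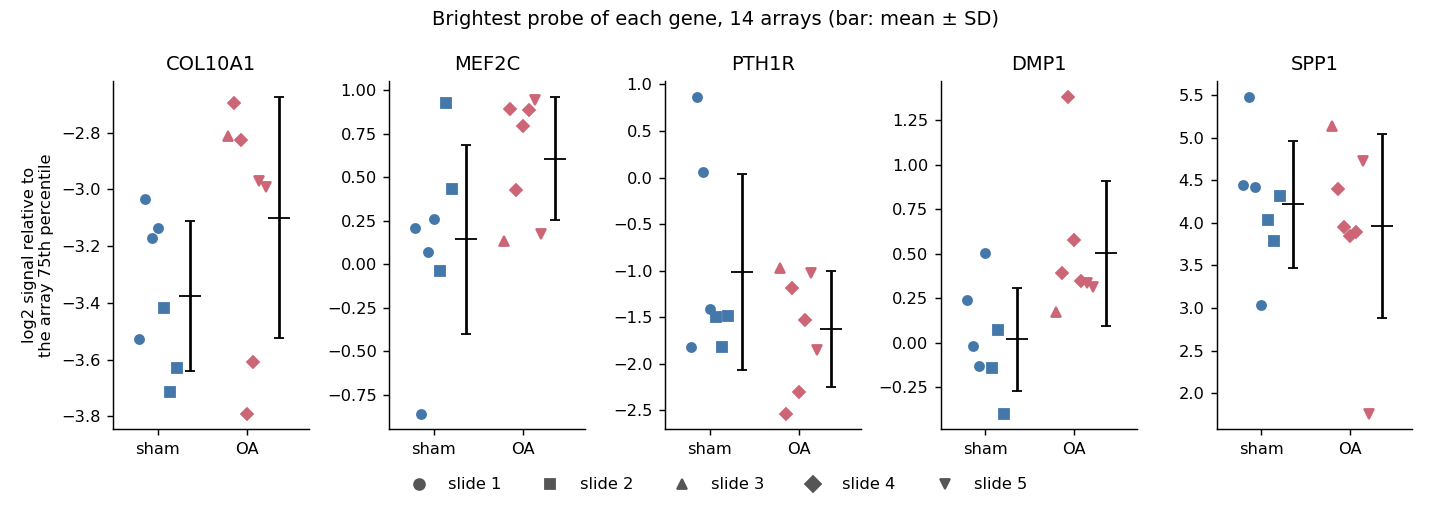
The log2 signal relative to each array's 75th percentile (vertical axis) is drawn for the brightest probe of each gene, with a point per array, symbols for slides, and bars for mean ± SD of 7 arrays. Sham and OA points overlap for every gene; OA 3 stands at 1.38 for DMP1 and OA 7 at 1.76 for SPP1.

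SPP1, osteopontin, is a secreted integrin ligand of bone, macrophages and chondrocytes that inhibits crystal growth. In the RefSeq gene table of Sscrofa11.1, MEPE and IBSP are the 2 protein-coding genes listed between SPP1 and DMP1, and these genes belong to 1 family of bone and dentin proteins. MEPE and IBSP were not analysed here.

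SPP1 was bright: the raw signal of its brightest probe was 4984 to 18678 in sham and 1663 to 10682 in OA. After scaling that probe ran in sham from 3.03 through 4.31 to 5.48, and in OA from 1.76 through 3.95 to 5.14. The OA arrays enclosed most of the sham range, with OA 1 and OA 6 high and OA 7 below every other array. The means were 4.22 ± 0.74 and 3.96 ± 1.08 (SD, n = 7). They differed by -0.26 ± 0.44 (SE; 95% interval -1.19 to 0.67; limma adjusted p = 0.79), an interval of 0.438-fold to 1.60-fold for OA over sham.

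The sign of the brighter SPP1 probes rested on OA 7. Without it the brightest probe gave 0.11 (limma adjusted p = 0.88) and probe 2 gave 0.28 (adjusted p = 0.68), whereas probes 3 and 4 stayed negative at -0.31 (adjusted p = 0.68) and -0.62 (adjusted p = 0.41). Without sham 2 the brightest probe gave -0.05 (limma adjusted p = 0.97) and probe 2 gave 0.06 (adjusted p = 0.97). With the brightness covariate the 4 probes gave -1.41, -1.38, -1.45 and -1.99 (limma adjusted p from 0.45 to 0.60).

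With all arrays, the 4 SPP1 probes shared a negative sign but not a size. Probe 2 gave -0.14 ± 0.48 (SE; limma adjusted p = 0.90), probe 3 -0.62 ± 0.43 (adjusted p = 0.45) and probe 4 -1.01 ± 0.51 (adjusted p = 0.28). Probe 4 had the largest size among the 11 changes, and its 95% interval ran from -2.08 to 0.06. All 4 probes lay on the same side of their sham means on 11 of 14 arrays. They parted most on OA 3, by 1.30. Averaged over the 4 probes, SPP1 stood at -0.51 (limma adjusted p = 0.57).

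Probes 1 and 2, at mean signals of 6262 and 5349, stood near sham on the 4 arrays of slide 4, at -0.19 and 0.01 from the sham mean. Probes 3 and 4, at 354 and 272, stood at -0.62 and -1.05 there. These 4 OA arrays were among the 5 dimmest of the 14, and the part of brightness in this gap was not tested. On slide 3 the 4 probes stood at 0.92, 0.86, 0.10 and 0.15.

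**Figure D2:**
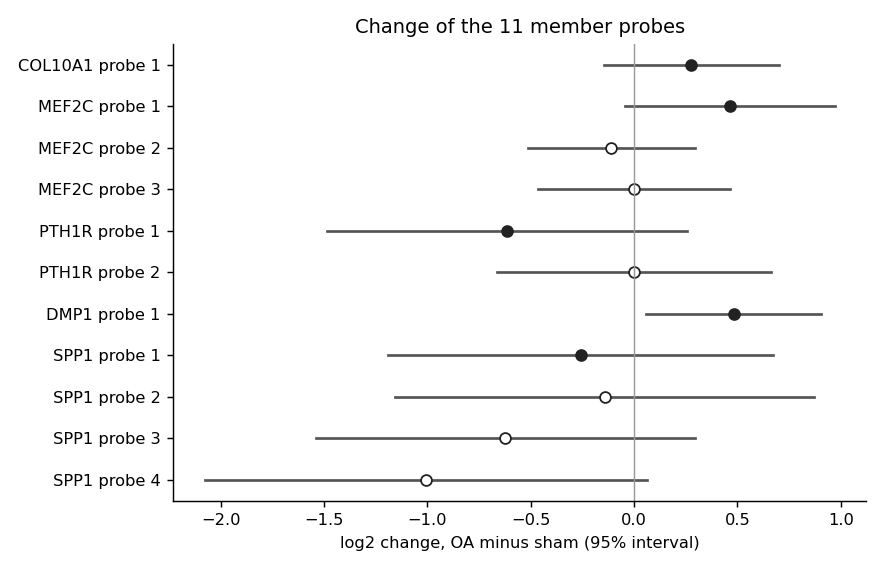
The log2 change, OA minus sham, of each of the 11 member probes is drawn with its 95% interval from limma; filled points mark the brightest probe of a gene. The interval of DMP1, 0.06 to 0.91, is the 1 that leaves out 0; the 4 SPP1 probes run from -0.14 to -1.01.

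The spread of SPP1 between pigs of one group was large. Its 4 probes had within-group SDs of 0.93, 1.01, 0.91 and 1.07, where the median probe had 0.45; 94.4%, 96.2%, 94.0% and 97.1% of those probes had an SD no larger. PTH1R came next, with 0.86 for its brightest probe (92.3%). COL10A1 at 0.35 (28.3%) and DMP1 at 0.35 (27.9%) varied less than most probes. MEF2C stood in the middle at 0.46 (50.8%).

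A pair of pigs on a single slide shows how far SPP1 ranged. OA 6 and OA 7 were both on slide 5, with raw 75th percentiles of 404 and 492. SPP1 was 7.81-fold higher in OA 6 than in OA 7 by its brightest probe and 12.9-fold higher by probe 4. Without scaling these ratios were 6.42 and 10.6. On the same pair of arrays the scaled ratio of OA 6 to OA 7 was 1.01 for COL10A1, 1.01 for DMP1, 1.71 for MEF2C and 1.77 for PTH1R by the brightest probes. Without scaling these were 0.834, 0.833, 1.40 and 1.45. Within sham, SPP1 spanned 5.46-fold from sham 4 to sham 2, both on slide 1.

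**Figure D3:**
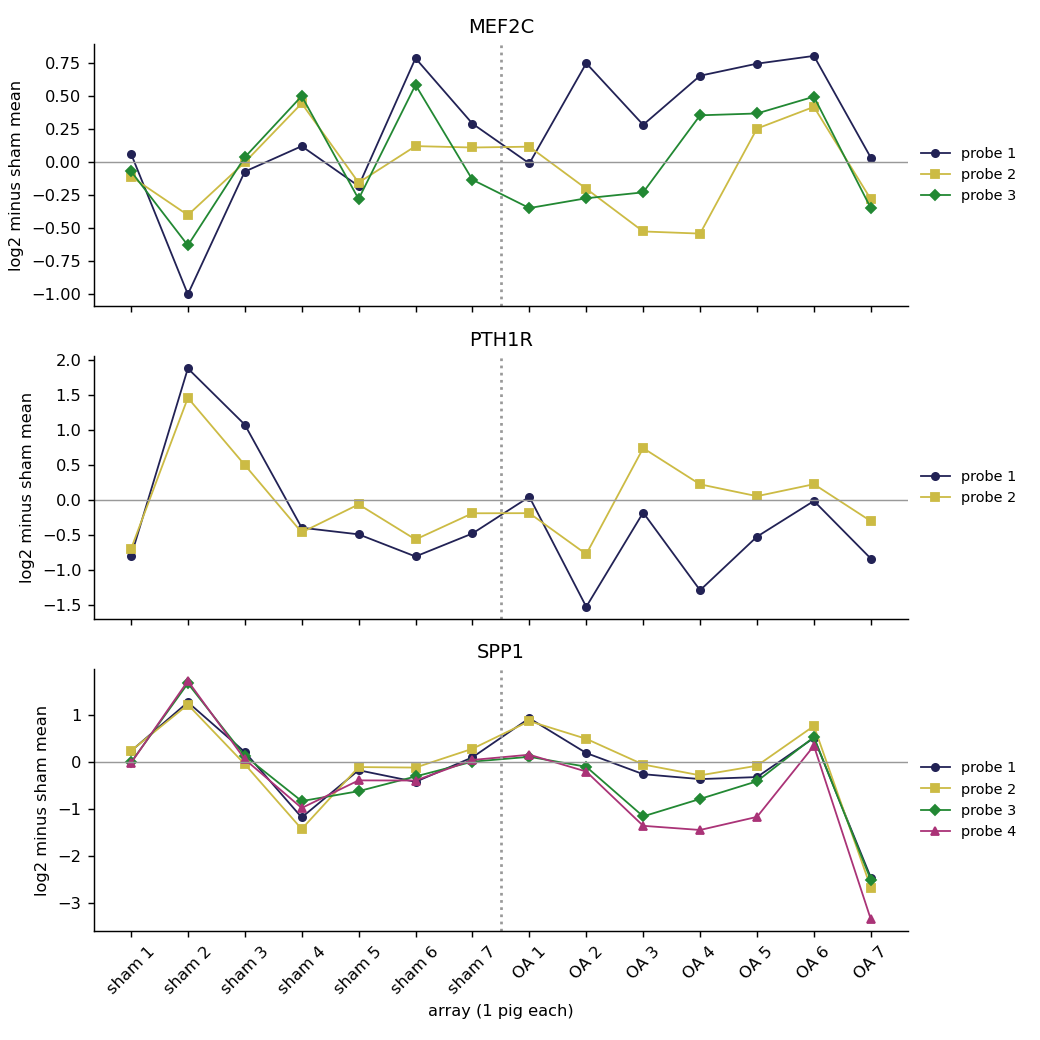
Each line follows a probe of MEF2C, PTH1R or SPP1 over the 14 arrays, as log2 signal minus the mean of the 7 sham arrays; the dotted line parts sham from OA. The SPP1 lines run together in sham, peak at sham 2 and drop to between -2.46 and -3.35 at OA 7; the PTH1R lines peak together at sham 2 and part on the OA arrays.

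Of all named genes, those nearest to SPP1 were genes of cartilage. Each gene was centred on its own mean over the 14 arrays, and the root mean square difference between 2 genes was taken as the measure of likeness, over 2257 other genes. HAPLN1, the link protein that ties aggrecan to hyaluronan, was nearest to SPP1 at 0.45, and SOX9, the master transcription factor of chondrocytes, followed at 0.48, against an SD of SPP1 over arrays of 0.90. Like SPP1, both were lowest in OA 7 (HAPLN1 2.23, SOX9 -1.95) and highest in sham 2 (5.34 and 1.76). HAPLN1 stood at -0.31 and SOX9 at -0.43 in OA (limma adjusted p = 0.74 and 0.64).

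The genes nearest to PTH1R were LMO1, a LIM-only transcription cofactor, at 0.38, and FGFR2, a fibroblast growth factor receptor, at 0.40. Both were highest in sham 2 as well, and FGFR2 was lowest in OA 7. Nearest to MEF2C were LY96, the co-receptor of Toll-like receptor 4, at 0.26 and RIT1, a Ras-like GTPase, at 0.30, both lowest in sham 2 as MEF2C was. SLN, the sarcolipin of muscle, at 0.25 and FHL1, a LIM domain protein of muscle, at 0.26 were nearest to DMP1, and both were highest in OA 3. KCNJ2, a potassium channel, at 0.19 and SFTPC, a surfactant protein, at 0.20 were nearest to COL10A1; both were dim, at signals of 18.0 and 22.3. These distances describe the 14 arrays, which share slides and brightness, and none of these 10 genes passed the test of OA against sham.

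**Figure D4:**
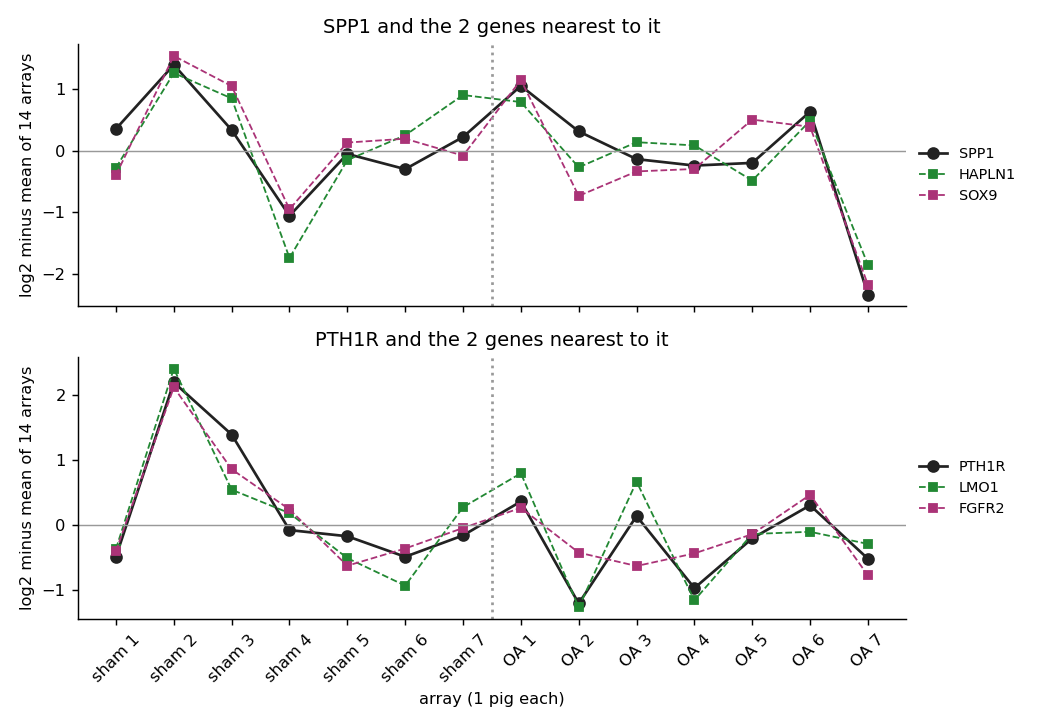
The brightest probes of SPP1 and PTH1R are drawn over the 14 arrays beside the 2 named genes nearest to each, as log2 signal minus the gene's mean over 14 arrays. SPP1, HAPLN1 and SOX9 are each highest in sham 2 and lowest in OA 7; PTH1R, LMO1 and FGFR2 are each highest in sham 2.

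Markers of other cells were read beside these patterns. Of 10 macrophage markers 5 were measured, all well above background on 14 arrays, and 0 passed. Their summed level, in multiples of the array's 75th percentile, was 14.2 to 72.6 in sham and 35.7 to 64.8 in OA. Sham 2, with the highest SPP1, had the lowest sum at 14.2, and OA 7, with the lowest SPP1, stood at 59.3. CD14, a co-receptor for lipopolysaccharide, stood at -0.45 ± 0.24 (SE; limma adjusted p = 0.33) and LYZ, lysozyme, at 0.89 ± 0.68 (adjusted p = 0.50). Of 9 osteoclast markers 6 were measured, with sums of 157 to 219 in sham and 196 to 356 in OA, and 0 passed; 4 of the 6 were positive, the median was 0.34, and OA 7 stood at 231. Among them ITGB3, an integrin chain of osteoclasts and platelets, stood at 0.61 ± 0.17 (SE; limma adjusted p = 0.055), above the sham mean in 7 of 7 OA arrays. CTSK, cathepsin K, stood at -0.31 ± 0.20 (SE; limma adjusted p = 0.42). Among 9 osteoblast and bone markers BGLAP, osteocalcin, was the 1 measured, at -0.09 ± 0.19 (SE; limma adjusted p = 0.83). The 4 meniscus markers summed to 471 to 843 in sham and 574 to 1024 in OA, with 0 past the threshold. The part of cell makeup in the values of the members was not tested.

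MEF2C is also a gene of muscle and endothelium. Of 18 skeletal muscle markers 15 were measured; their median change was -0.16 and their sum was 13.3 to 41.7 in sham and 11.3 to 23.3 in OA. TNNI1, slow troponin I, was the 1 that rose, by 0.71 ± 0.18 (SE; limma adjusted p = 0.041; 0.21 with the slide as a random block). For MYH7, a myosin of slow fibres, the difference was 0.97 ± 0.29 (adjusted p = 0.075). The 4 measured endothelial markers, of 8, had a median of -0.36 and sums of 8.21 to 39.0 in sham and 15.0 to 38.1 in OA, and 0 passed. PECAM1 stood at -0.89 ± 0.42 (SE; limma adjusted p = 0.26) and CDH5 at 0.49 ± 0.31 (adjusted p = 0.41), both junction proteins of endothelium. The endothelial sum was lowest in sham 2, at 8.21, and highest in sham 6, at 39.0. These were the sham arrays lowest and highest in MEF2C, at -0.86 and 0.93. OA 5, with the next lowest sum at 15.0, stood at 0.89 in MEF2C, and OA 4, with a sum of 38.1, at 0.80. The part of muscle or endothelial cells in the MEF2C values was not tested. Of 7 tested adipocyte markers LEP, leptin, rose by 0.74 ± 0.16 (SE; limma adjusted p = 0.021; 0.17 with the slide block) by the brighter of its 2 probes, while the other had the opposite sign. Their sum was 6.84 to 21.6 in sham and 8.46 to 48.3 in OA. Sham 2, with the highest SPP1, had the lowest adipocyte sum of the 14 arrays. OA 7, with the lowest SPP1, stood at 47.4, close to OA 2 at 48.3, and OA 3 followed at 23.4. By its brightest probe, SPP1 in OA 2 lay 0.18 above the sham mean. The part of adipocytes in the SPP1 values was not tested. PNPLA2, a triglyceride lipase above background on 2 of 7 OA arrays, stood at -0.83 ± 0.33 (SE; limma adjusted p = 0.17). Of 4 tested synovial lining markers 0 passed, with sums of 33.8 to 88.8 in sham and 38.1 to 70.8 in OA; CLU, clusterin, stood at -1.07 ± 0.60 (limma adjusted p = 0.34) and CLIC5 at 0.21 ± 0.15 (adjusted p = 0.47).

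The transcription factors around MEF2C showed no call. Of 21 listed hypertrophy transcription factors and regulators 5 were tested and 0 passed in either direction, with a median of -0.06. ATF4, a stress-response activator needed by osteoblasts, stood at -0.48 ± 0.25 (SE; limma adjusted p = 0.29) with all 6 of its probes negative, and SOX9, which restrains hypertrophy, at -0.43 ± 0.46 (adjusted p = 0.64). MEF2A, a relative of MEF2C, stood at -0.06 ± 0.19 (adjusted p = 0.90). RUNX2 and SP7 were not analysed here.

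On the side of the receptor, 7 of 25 genes of parathyroid hormone and hedgehog signalling were tested; 0 passed, 2 were positive and the median was -0.10. PTHLH, which encodes the ligand parathyroid hormone-related protein, stood at -0.29 ± 0.29 (SE; limma adjusted p = 0.62). PDE4B, a phosphodiesterase that ends cyclic AMP signals, stood at 0.33 ± 0.23 (adjusted p = 0.46), and GNA11, a G protein subunit, at -0.22 ± 0.20 (adjusted p = 0.60). GNAS, the stimulatory G protein downstream of PTH1R, stood at -0.03 ± 0.19 (adjusted p = 0.94).

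Among bone and dentin matrix proteins 7 of 16 were tested, with 0 higher, 1 lower and a median of -0.09. The lower one was ODAM, a protein of enamel-forming epithelium, which was well above background on 7 sham arrays and on 0 OA arrays. It was at least 1.05-fold lower in OA (limma adjusted p = 0.014; 0.15 with the slide as a random block), and its sign turned with normexp correction, to 0.62. MGP, matrix Gla protein, a strong inhibitor of calcification, stood at 0.41 ± 0.18 (SE; limma adjusted p = 0.23) with all 5 of its probes positive.

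The receptors of osteopontin and the enzymes that cut or crosslink it had the highest median among the pathway lists, 0.26, with 5 of 7 tested genes positive and 0 past the threshold. No enzyme that crosslinks osteopontin was among the 7 tested. ITGB3, the beta chain of its integrin receptor, stood at 0.61 ± 0.17 (SE, limma adjusted p = 0.055, and 0.26 with the slide block). Above the sham mean were 7 of 7 OA arrays, and both probes were positive. The summed level of the 7 genes was 211 to 261 in sham and 284 to 379 in OA. Bright probes weigh most in such a sum, and the difference between these ranges was not tested. How often sums of other genes part in this way was not computed. The list shares ITGB3 and MMP9 with the osteoclast list, whose sums in sham and OA overlapped. ITGAV, the partner chain, stood at 0.28 ± 0.20 (adjusted p = 0.45). Of 16 genes of phosphate handling and matrix vesicles 2 were tested and 0 passed: ANXA2, an annexin of vesicles, at 0.40 ± 0.24 (adjusted p = 0.37), and SLC34A1, a phosphate transporter, at -0.19 ± 0.25 (adjusted p = 0.73). Of 7 tested other genes of hypertrophic cartilage 0 passed, with a median of -0.23, BMP6, a bone morphogenetic protein, at -0.32 ± 0.20 (adjusted p = 0.40) and VEGFA at -0.80 ± 0.62 (adjusted p = 0.51).

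**Figure D5:**
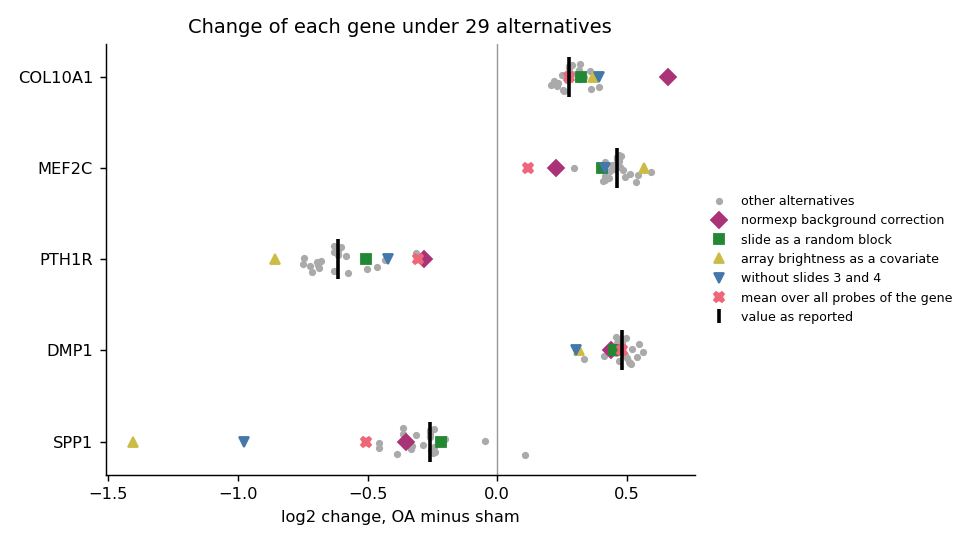
The log2 change, OA minus sham, of each gene is drawn as reported by its brightest probe (bar) and under 29 alternatives (symbols). The alternatives include the mean over all probes of the gene, and small points mark those not named in the key. COL10A1, MEF2C and DMP1 stay above 0 and PTH1R below it throughout; SPP1 runs from -1.41 to 0.11, the latter without OA 7.

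Over these 29 alternatives COL10A1 ran from 0.21 to 0.66, MEF2C from 0.12 to 0.59, DMP1 from 0.30 to 0.56 and PTH1R from -0.86 to -0.28. The value of 0.12 for MEF2C was the mean over all its probes, and its brightest probe ran from 0.23 to 0.59. By their brightest probes, MEF2C, PTH1R and SPP1 passed the threshold under none of these alternatives, with smallest limma adjusted p-values of 0.19, 0.34 and 0.51, and COL10A1 and DMP1 passed under 1 each, normexp background correction. Of the 6 other probes, MEF2C probe 3 (0.36, limma adjusted p = 0.049) and PTH1R probe 2 (0.53, adjusted p = 0.036) also passed with normexp. The brightest PTH1R probe had the opposite sign there, at -0.28 (limma adjusted p = 0.49).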

How the data were processed

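The authors deposited 1 scanner file per array, holding intensity values; per the file headers the software was Feature Extraction 11.0.1.1 from Agilent, with background subtraction and spatial detrending within each single-colour (Cy3) array and no normalization between arrays. The authors' deposited series table holds log2 values, whose columns had medians of 5.99 and followed the same array's signal (Spearman rho 0.994 to 1.00); they were taken as quantile-normalized, uncentred and in the signal's direction, and their making is not stated in the labels used here.

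Each array's processed signals (43603 probes, controls left out) were put on the log2 scale and its 75th percentile was subtracted. Spots marked non-uniform or population outlier (82, none of a member) were set missing, and 0 spots were saturated. A probe was tested if 7 or more of the 14 arrays had it well above background (38818 probes), with limma 3.58.1 in R 4.3.3, two-sided, Benjamini-Hochberg over all of them, threshold 0.05; the script was tested on simulated data. The number of arrays limits the precision.

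Names came from matching RefSeq accessions, without version, to the Sscrofa11.1 gene table (5461 of 5779 matched, 2389 genes). No source used here names the array's genome build, so no coordinates are given. The brightest tested probe stood for a gene. The rule for named genes took every member probe, from each list the genes past the threshold or the 2 with the smallest p, and for each member the 2 nearest genes. PTHLH, GNAS, MEF2A, and ACAN and DCN in the tissue check, were named outside it, after their values were seen. Members and lists were chosen with earlier results of these data known. Alternatives were other scalings, background correction, filters, blocks and left-out arrays; normexp used the median spot signal in place of the planned mean.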

Additional observations from a re-analysis of the deposited data

Results flagged for a closer look

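In each group of 7 arrays, the gap between the highest or lowest array and its neighbour was set against the group's whole range, with Dixon's 95% critical value as the limit. Of 22 groups (11 probes, sham and OA) 5 passed, where chance alone gives about 1 in 20; the probes of a gene share their arrays, so these are 3 arrays in 2 genes. For DMP1, the dentin matrix phosphoprotein, OA 3 stood above the other OA arrays with a ratio of 0.667. For SPP1, osteopontin, OA 7 stood below the other OA arrays on probe 1 (0.618) and probe 2 (0.674), and sham 2 stood above the other sham arrays on probe 3 (0.616) and probe 4 (0.616).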

How the results depend on the processing

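No member probe passed the threshold in the values reported; with normexp background correction 4 of 11 did: COL10A1 (0.66), DMP1 (0.44), MEF2C probe 3 (0.36) and PTH1R probe 2 (0.53), where all tested probes had a median of 0.33. By its brightest probe SPP1 turned positive without OA 7, and leaving out single arrays gave -0.46 to 0.11. SPP1 probes 3 and 4 kept their negative sign under every alternative. The count of probes past the threshold, 1446 (1117 higher, 329 lower), became 2254 with quantile normalization (1573 and 681), 2256 in the authors' table (1509 and 747), 18371 with normexp (17574 and 797) and 2549 without a filter; median scaling gave 1368 higher and 784 lower. It was 18 with the slide as a random block, 148 with the scan day, 195 without slides 3 and 4, and 4 with the brightness covariate, an alternative chosen after the data were seen. Leaving out single arrays gave 727 to 2708, past 1.5 times for sham 1 (727), sham 2 (901), sham 3 (932), sham 6 (822), OA 1 (2708), OA 2 (788), OA 3 (732) and OA 5 (948). The cause was not tested. With the replicate number as a block the count was 281 and no member passed. The deviations of same-numbered arrays correlated from -0.19 to 0.27, 2 of 7 pairs over 0.1, and 1 of 14 arrays correlated best with its own number. Whether same-numbered pigs shared more than a number cannot be told from these values. All 11 member probes were well above background on every array; COL10A1 and the second PTH1R probe, at mean signals of 39.0 and 32.1, were the dimmest.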
